A study of Mus musculus with 65 samples.

Results

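The expression of 8 genes of the interleukin-10 (IL-10) family and of the colony-stimulating factors was described across every group of a series of 65 mouse RNA sequencing libraries. The genes were taken by their symbols from the 23755 rows of the gene count table: the cytokine genes Il10, Il19, Csf1, Csf2 and Csf3, and the receptor genes Il10ra, Csf1r and Csf2rb. The rule that took them used symbols and no measured value, but the members were chosen with earlier results of these data known.

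IL-10 is the main cytokine by which activated macrophages and dendritic cells restrain inflammation. It binds a receptor made of the chain encoded by Il10ra, which gives the response its specificity, and the shared chain encoded by Il10rb, and it signals through the kinases Jak1 and Tyk2 to the transcription factor Stat3. IL-19, encoded by a neighbour of Il10 in a cytokine cluster, belongs to the same family but uses other receptors. Csf1 (M-CSF) keeps macrophages alive through the receptor tyrosine kinase Csf1r. Csf2 (GM-CSF) is used to grow dendritic cells from bone marrow and binds a specific chain, encoded by Csf2ra, together with the common beta chain encoded by Csf2rb, while Csf3 (G-CSF) drives the production of neutrophils.

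The series addresses the induction of transposable elements during innate sensing, and polyA RNA was sequenced in 3 experiments. In experiment 2, 12 libraries came from dendritic cells grown from bone marrow of C57BL/6 background and left unstimulated, 3 for each combination of Suv39h1WT or Suv39h1KO (Suv39h1 is a histone H3K9 methyltransferase) with IfnarWT or IfnarKO (the receptor of type I interferons). Experiment 3 held 35 libraries of such cells, untreated (0 h) or given LPS (lipopolysaccharide, which TLR4 senses) at 100 ng/mL for 2 h or 4 h: 6, 5 and 6 wild-type (MyD88WT, TrifWT) libraries at those times, and 3 at each time of cells labelled MyD88KO and of cells labelled TrifKO, after the adaptors of TLR4. All of these carried Suv39h1WT and IfnarWT. In experiment 5, 18 libraries came from the macrophage line RAW264.7, labelled BALB/c, whose cells carried the guide RNA gRNA_Ctrl, gRNA_1 or gRNA_2, with 3 libraries for each guide at 0 h and at 2 h of LPS. The targets of the guides are not given, nor is it given whether the cells with a guide were 1 clone or a pool. The titles of the RAW264.7 libraries call the cells DC, the LPS dose is stated for the dendritic cells only, and the deleted part of each knocked-out gene is not stated. Replicates carry cohort numbers. It is not given whether cohorts are separate animals or cultures, or whether wild-type libraries that share a cohort number share cells, so p-values measure the spread between these libraries.

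Libraries held 36879570 to 95292653 counts (median 54709838). Levels are in CPM, counts relative to library size after scaling for library composition by TMM within each experiment, and levels of separate experiments were scaled separately. Summed levels of 10 conventional dendritic cell marker genes were 13820 to 33190 CPM in the 47 dendritic cell libraries and 98.6 to 271 CPM in the RAW264.7 libraries. The sum of 8 granulocyte markers was 95.9 to 1640 CPM in the dendritic cell libraries and at most 1.12 CPM in RAW264.7 cells. In bulk RNA, a change in the share of a cell type and a change in RNA per cell cannot be told apart.

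The targeted genes were checked against the labels. Suv39h1 was at 0.11 to 0.371 CPM in Suv39h1KO libraries and at 36.9 to 64.6 CPM in the other libraries of experiment 2. Ifnar1 was at 122 to 161 CPM in IfnarKO libraries and at 173 to 218 CPM in the others. Myd88 was at 46.2 to 48.6 CPM in MyD88KO cells at 0 h and at 72.2 to 80.7 CPM in wild-type cells. It was at 93.7 to 115 CPM in MyD88KO cells at 2 h and 83.3 to 97.6 CPM at 4 h, against 269 to 323 CPM and 384 to 461 CPM in wild-type cells, so it was lower than in the wild type at each time but not absent. Ticam1, which encodes Trif, did not follow the label in 7 of the 9 libraries labelled TrifKO, where it was at 29.8 to 50.3 CPM, within or near the wild-type range of 25.02 to 58.4 CPM. It was at 2.94 and 2.46 CPM in the replicate 3 libraries at 2 h and 4 h. These 2 libraries also stood apart in marker sums, with 1157 and 1198 CPM of granulocyte markers (335 to 516 in the other 7) and 163 and 167 CPM of mast cell and basophil markers (50.9 to 63.8 in the other 7). Their macrophage marker sums, 6812 and 7310 CPM, were below the 8900 to 12660 CPM of the others, and their B cell sums, 0.307 to 0.744 CPM, below 3.76 to 6.73 CPM. Conventional dendritic cell markers, at 22910 to 23260 CPM, were above the 14030 to 18130 CPM of the others, and T and NK cell markers, at 7.44 to 15.8 CPM, above 0.282 to 1.03 CPM. Xist, which is expressed from an inactive X chromosome, was at 1010 CPM in replicate 3 at 0 h and at 0.0204 and 0 CPM in replicate 3 at 2 h and 4 h, so the libraries that share this number differ in Xist. Those of cohort 1 (0, 0 and 1233 CPM at the 3 times) and cohort 2 (1091, 1203 and 0.0378 CPM) also did. For these reasons the groups are called cells labelled TrifKO, and their results are given with and without cohort 3. Leaving out cohort 3 removes the 2 libraries in which Ticam1 was low.

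The genes lie apart in the genome except for the IL-10 cluster. In the GENCODE annotation of GRCm38 Il10 spans chr1:131019845-131024974 on the plus strand, and Il19 lies 79.7 kb away at chr1:130932656-130940115 on the minus strand. Csf1 spans chr3:107741048-107760469 (minus), Csf2 chr11:54247271-54249667 (minus), Csf3 chr11:98701263-98703629 (plus) and Il10ra chr9:45253837-45269149 (minus). Csf2rb spans chr15:78325752-78353847 (plus), 20030 bases from its near-identical copy Csf2rb2, so the split of reads between these genes is uncertain. Predicted genes on the opposite strand overlap Il10ra and Csf2, and Hmgxb3 overlaps Csf1r. Whether the counting used the strand is not given in the sources used here.

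The 250 bases before the start of a pair of LPS-induced members are shown because both hold the letters GGGA, any 4 bases and CC, a loose form of the site bound by NF-kappaB, the factor that TLR4 signalling activates. The windows are from RefSeq (GRCm38.p6), both on the minus strand and written 5′ to 3′, at chr1:130940116-130940365 for Il19 and chr3:107760470-107760719 for Csf1, with matches in capitals.
Il19: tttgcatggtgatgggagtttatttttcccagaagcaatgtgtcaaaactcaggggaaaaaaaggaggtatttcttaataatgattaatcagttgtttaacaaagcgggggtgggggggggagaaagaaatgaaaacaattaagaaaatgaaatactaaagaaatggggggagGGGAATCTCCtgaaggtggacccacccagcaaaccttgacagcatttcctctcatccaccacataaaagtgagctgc
Csf1: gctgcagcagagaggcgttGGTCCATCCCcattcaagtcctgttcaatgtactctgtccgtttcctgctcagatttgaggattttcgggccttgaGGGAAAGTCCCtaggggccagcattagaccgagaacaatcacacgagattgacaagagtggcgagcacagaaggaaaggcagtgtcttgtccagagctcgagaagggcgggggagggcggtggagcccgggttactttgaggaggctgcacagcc
Windows were found for 3 of the 8 members. The Il19 window held 1 match, GGGAATCTCC, 77 to 68 bases before the start. The Csf1 window held 3 matches: GGTCCATCCC on the opposite strand at 231 to 222 bases, GGGAAAGTCC at 155 to 146 bases, and GGAAAGTCCC on the opposite strand at 154 to 145 bases, which overlaps the one before it by all but 1 base. The window of Csf2 held no match of this motif, although LPS raised Csf2 too. It is not printed because its RefSeq start lies 232 bases upstream of the GENCODE start. Of 32851 promoter windows of this length, 17.6% held this motif on either strand. The sequences TATAAA (7.59% of windows), searched on the strand of the gene only, and TGANTCA (6.75%), searched on both strands, were not in the 3 windows. A match is a description of the letters, not evidence of binding.

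Before LPS, wild-type dendritic cells expressed the receptor genes and Csf1, and the other cytokine genes were near the limit of detection. Mean levels per kilobase of exon at 0 h ran from 440 CPM per kb for Csf2rb through 166 for Csf1r, 44.99 for Il10ra and 10.8 for Csf1, with no overlap between neighbours in this order. They were 0.0916 for Il10, 0.0240 for Il19, 0.0152 for Csf2 and 0.00690 for Csf3, where neighbouring genes overlapped in range. At 4 h of LPS the order was Csf2rb (327), Il10ra (93.4), Csf1r (56.1), Csf1 (51.8), Il10 (13.8), Csf3 (6.88), Csf2 (2.43) and Il19 (0.874). There the ranges of Il10ra and Csf1r overlapped, as did those of Csf1r and Csf1, of Il10 and Csf3, and of Csf2 and Il19. Among partner chains, Csf2ra was at 72.7 and 88.6 CPM per kb at 0 h and 4 h, Il10rb at 26.1 and 37.8, and Csf3r, the receptor of Csf3, at 1.85 and 1.73.

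In wild-type cells LPS raised the 5 cytokine genes and Il10ra at both times and lowered Csf1r by 4 h. The quasi-likelihood test of edgeR with Benjamini-Hochberg adjustment over all tested genes called 7 of the 8 members at 2 h, where 45.9% of 14475 genes were called (21.3% higher and 24.6% lower), and 8 of 8 at 4 h, where 65.1% were called (30.0% higher and 35.1% lower). Il10, Il19, Csf2 and Csf3 passed the filter on low counts only through stimulated groups, so the counts of called members are no support of their own.

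Il10 was at 0.0245 to 0.251 CPM in the 6 wild-type libraries at 0 h (median 0.107). At 2 h it was at 3.50, 6.64, 4.27, 3.05 and 2.83 CPM, and at 4 h at 4.70 to 30.9 CPM (median 15.997). Every stimulated library was above every unstimulated one, and the 4 h values spread widely, overlapping those at 2 h. The log2 fold change was 5.07 ± 0.60 (SE) at 2 h (adjusted p = 4.64e-08) and 7.23 ± 0.62 at 4 h (adjusted p = 3.29e-11). Il10 was still rising between 2 h and 4 h, with a log2 fold change of 2.16 ± 0.50 (adjusted p = 0.00115).

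Il19 was lower throughout. At 0 h it held 11 counts over 6 libraries, and at 2 h it was at 0.648, 1.13, 0.737, 0.294 and 0.102 CPM. At 4 h it ranged from 0.214 to 2.80 CPM (median 0.427), with 2.80 and 1.90 CPM in 2 of the libraries with high library numbers and at most 0.565 CPM in the other 4. These 2 libraries, replicates 1 and 2, also had the highest Il10 at 4 h (30.9 and 29.4 CPM). They were closer to each other than the other wild-type pairs at 4 h, and whether they share cells is not given. The log2 fold change was 4.30 ± 0.87 at 2 h (adjusted p = 0.000216) and 5.07 ± 0.86 at 4 h (adjusted p = 1.13e-05), or 4.44 without replicate 1 with a high library number at 4 h. In wild-type libraries with low library numbers alone, which hold neither of the close pair, the 4 h value was 4.01 (adjusted p = 0.00507). The change from 2 h to 4 h, 0.77 ± 0.70, was not past the threshold (adjusted p = 0.42).

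Csf1, the only cytokine gene of the 5 with a clear level at rest, was at 44.3 to 72.1 CPM at 0 h (median 56.6). It was at 150, 406, 414, 312 and 257 CPM at 2 h and at 241 to 311 CPM at 4 h (median 270), without overlap with 0 h. The log2 fold change was 2.43 ± 0.20 at 2 h (adjusted p = 7.01e-11) and 2.26 ± 0.20 at 4 h (adjusted p = 3.98e-11). The 2 times did not differ past the threshold (-0.17 ± 0.20, adjusted p = 0.541).

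Csf2 and Csf3 went from almost no counts to several CPM. Csf2 had 5 counts over the 6 libraries at 0 h, and 3.03, 8.07, 5.54, 4.56 and 0.764 CPM at 2 h. At 4 h it was at 0.238 to 2.89 CPM (median 2.10). The lowest library at each stimulated time was that of cohort 3 with a high library number. Its log2 fold change was 8.23 ± 0.90 at 2 h (adjusted p = 1.16e-08) and 7.05 ± 0.88 at 4 h (adjusted p = 4.49e-08). Without the 0 h library that held 4 of the 5 counts, replicate 2 with a low library number, these were 9.66 and 8.48. Csf3 had 4 counts at 0 h and was at 8.02, 6.13, 4.67, 3.10 and 2.22 CPM at 2 h. At 4 h it was at 5.51 to 14.2 CPM (median 10.1). The log2 fold changes of Csf3 were 8.63 ± 0.69 and 9.64 ± 0.69 (adjusted p = 7.6e-11 and 1.91e-12).

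From 2 h to 4 h, 2 of the 8 members were called in wild-type cells (35.8% of all genes): Il10 rose, and Csf1r fell. Same-cohort libraries of 1 library set deviated together in wild-type and MyD88KO cells. With genotype, set and cohort as a replicate block, Csf3 (log2 fold change 0.91, adjusted p = 0.0022), Csf2 (-1.17, adjusted p = 0.0287) and Il10ra (-0.22, adjusted p = 0.0163) were called as well, so that 5 members passed. The 35.8% is from the fit without the block and does not apply to these added calls. In wild-type libraries with low numbers alone no member was called, and Il10 changed by 1.91 (adjusted p = 0.0959).

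**Figure D1:**
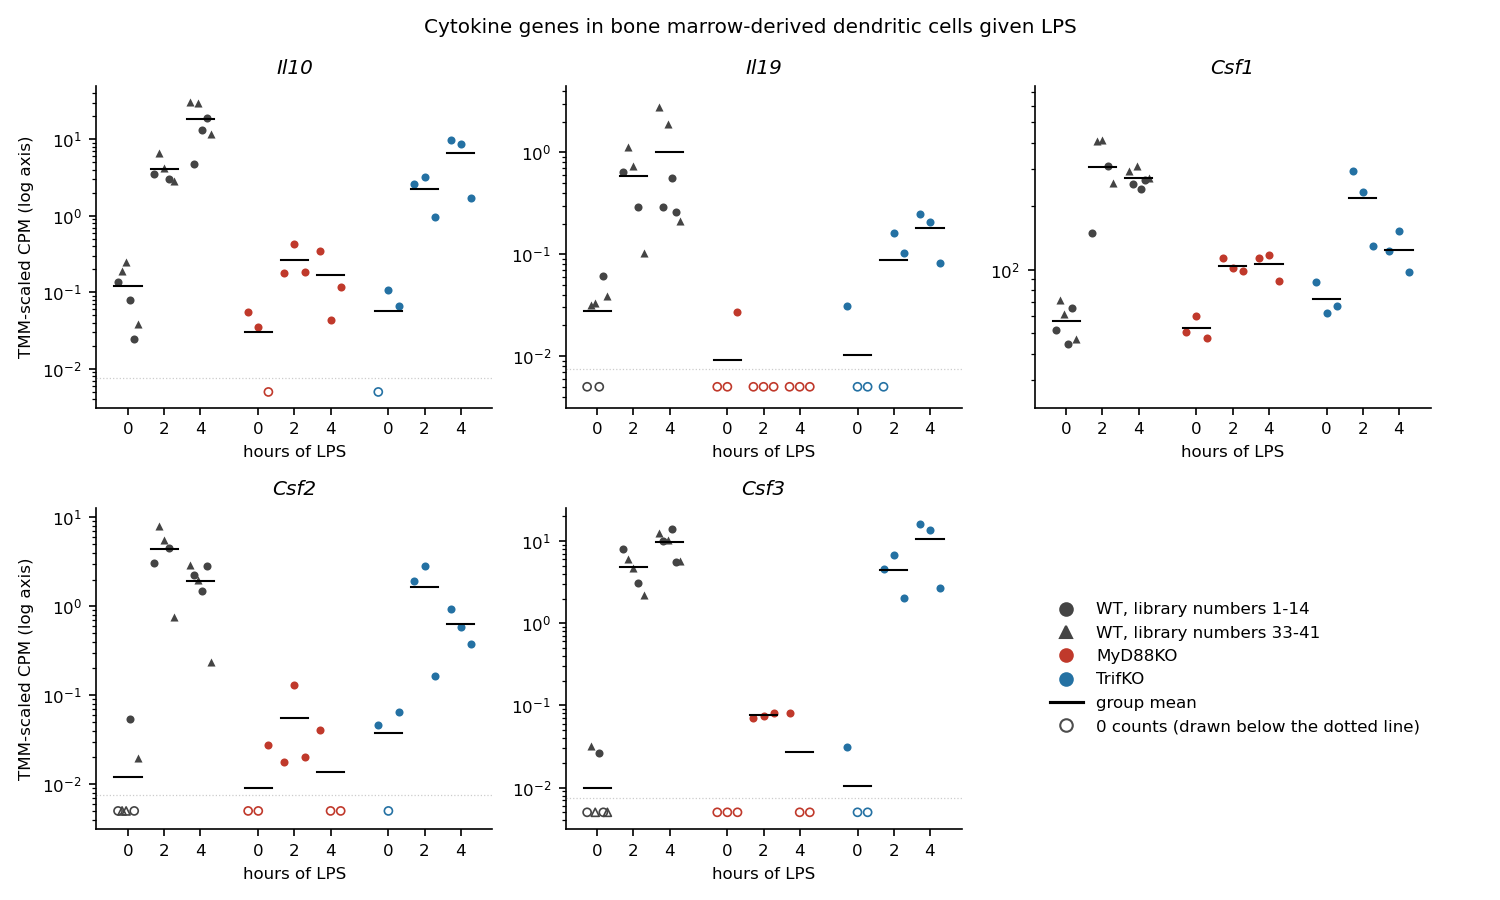
Level of the 5 cytokine genes in each dendritic cell library of experiment 3 (TMM-scaled CPM, log axis) against hours of LPS, by genotype label; bars are group means, and open symbols below the dotted line are libraries with 0 counts. Il10 reached 4.70 to 30.9 CPM in wild-type cells at 4 h and at most 0.429 CPM in any MyD88KO library.

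Of the receptor genes, Il10ra rose and the growth factor receptors fell. Il10ra was at 144 to 172 CPM in wild-type cells at 0 h (median 157), at 291, 415, 476, 368 and 395 CPM at 2 h, and at 269 to 374 CPM at 4 h (median 331). Its log2 fold change was 1.31 ± 0.10 at 2 h (adjusted p = 2.82e-11) and 1.05 ± 0.10 at 4 h (adjusted p = 2.37e-10), without overlap with 0 h.

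Csf1r, on chromosome 18, was at 889.5 to 1095 CPM at 0 h (median 920.0), at 996, 658, 718, 478 and 713 CPM at 2 h, and at 145 to 476 CPM at 4 h (median 312). All 4 h libraries were below all others of the wild type. The log2 fold change was -0.43 ± 0.24 at 2 h (adjusted p = 0.14; with genotype, set and cohort as a replicate block -0.40, adjusted p = 0.0446) and -1.57 ± 0.23 at 4 h (adjusted p = 6.42e-07). Csf1r and its ligand gene Csf1 thus changed in opposite directions by 4 h.

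Csf2rb, the most abundant member per length, was at 2758 to 3402 CPM at 0 h (median 3332) and at 1817 to 2709 CPM at 4 h (median 2458). The fall was small, with a log2 fold change of -0.36 ± 0.11 at 2 h (adjusted p = 0.00881) and -0.43 ± 0.11 at 4 h (adjusted p = 0.000804). In wild-type libraries with low numbers the 2 h value was -0.30 (adjusted p = 0.242), and with wild-type libraries of a cohort summed it was -0.34 (adjusted p = 0.0612). Its copy Csf2rb2 did not change past the threshold (-0.02 ± 0.09 and -0.05 ± 0.09).

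**Figure D2:**
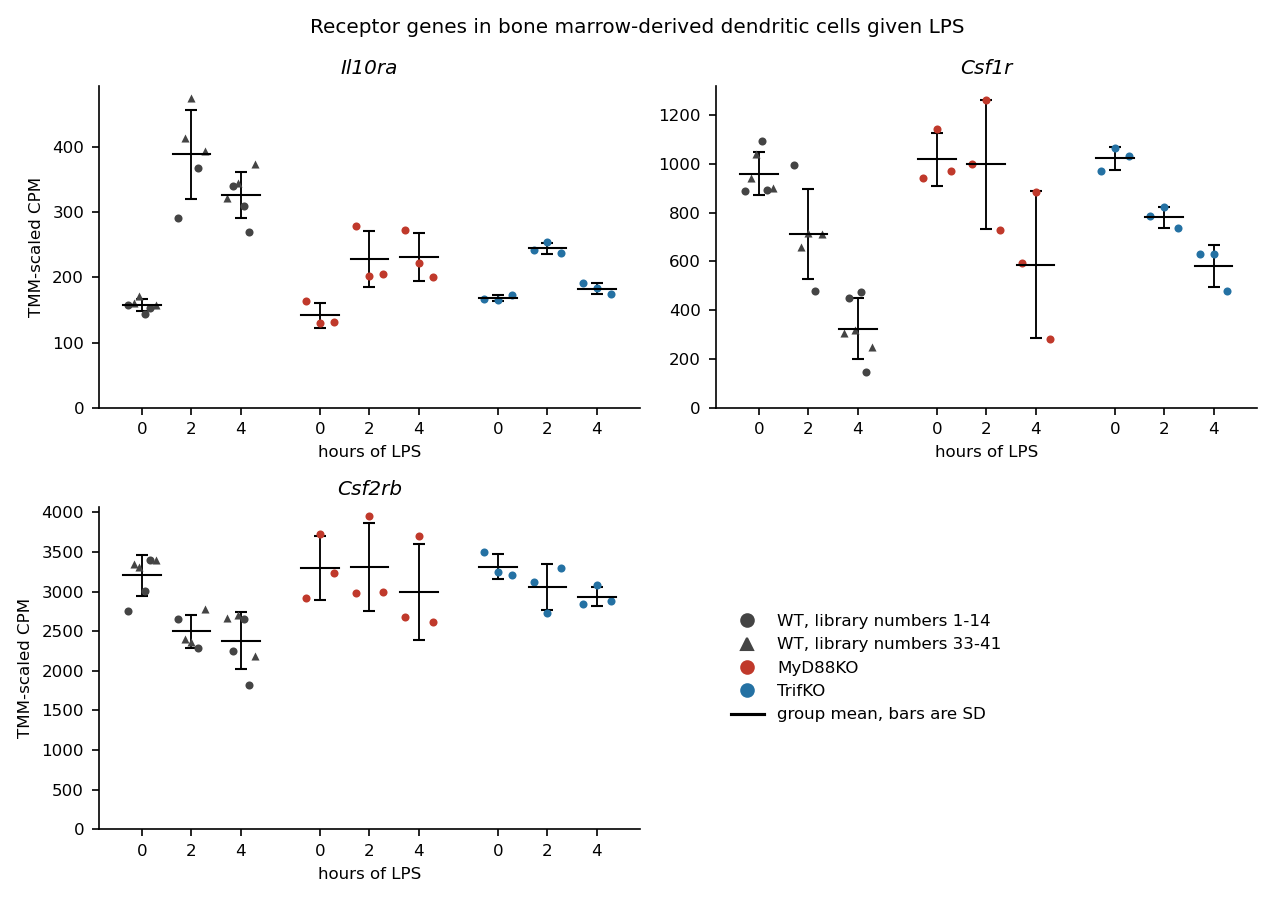
Level of the 3 receptor genes in each dendritic cell library of experiment 3 (TMM-scaled CPM, linear axis from 0) against hours of LPS, by genotype label; bars are the mean and SD. Wild-type Csf1r was at 145 to 476 CPM at 4 h against 889.5 to 1095 CPM at 0 h, while Il10ra was higher at 2 h and 4 h than at 0 h.

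In MyD88KO cells Il10, Il19, Csf2 and Csf3 were at 0.429 CPM or less at every time. Il10 was at 0.0554, 0.0355 and 0 CPM at 0 h, at 0.177, 0.429 and 0.183 CPM at 2 h, and at 0.345, 0.0434 and 0.118 CPM at 4 h. All values at 2 h were above those at 0 h, and the 4 h values overlapped both. The log2 fold change of 3.05 ± 1.09 at 2 h was not past the threshold (adjusted p = 0.0548). It passed with genotype, set and cohort as a replicate block (3.06, adjusted p = 0.0217) and in DESeq2 (3.15, adjusted p = 0.00688). At 4 h it was 2.42 ± 1.16 (adjusted p = 0.107; DESeq2 2.54, adjusted p = 0.0261).

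Csf3 had 0 counts in the 3 MyD88KO libraries at 0 h, 12 at 2 h and 4 at 4 h. Counted against 3 counts over the group, it was at least 5.07-fold higher at 2 h (adjusted p = 0.0556; with the replicate block of genotype, set and cohort 0.00982). Csf2 had 2, 9 and 2 counts, and its ratio of 2 h to 0 h was 5.70 (95% counting interval 1.18 to 54.2; adjusted p = 0.419). Il19 had 2 counts at 0 h and 0 at both later times.

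Csf1 and Il10ra still responded without MyD88. Csf1 was at 50.6, 60.3 and 47.2 CPM at 0 h, at 114, 102 and 98.3 CPM at 2 h, and at 114, 117 and 88.7 CPM at 4 h, so the stimulated libraries were all above the unstimulated ones. Its log2 fold change was 0.99 ± 0.27 at 2 h (adjusted p = 0.01) and 1.02 ± 0.27 at 4 h (adjusted p = 0.00397). Without MyD88KO replicate 3 at 0 h the 2 h value was 0.92 (adjusted p = 0.0509). Il10ra rose from 164, 129 and 132 CPM to 278, 202 and 206 CPM at 2 h (0.69 ± 0.14, adjusted p = 0.000727) and 272.6, 221 and 201 CPM at 4 h (0.71 ± 0.14, adjusted p = 0.000244).

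Csf1r in MyD88KO cells was at 943, 1144 and 972 CPM at 0 h, at 999.5, 1263 and 731 CPM at 2 h, and at 595, 884 and 282 CPM at 4 h. The 4 h group lay below the 0 h group, with a wide spread. At 4 h the log2 fold change was -0.80 ± 0.32 (adjusted p = 0.0516), and it passed in DESeq2 (-0.76, adjusted p = 0.0437), without TMM (-1.13, adjusted p = 0.00672), with the replicate block (-0.93, adjusted p = 0.00168) and without replicate 2 at 4 h (-1.22, adjusted p = 0.00671). Csf2rb did not change past the threshold (0.01 ± 0.15 and -0.13 ± 0.15). In all, 2 of the 8 members were called at 2 h (16.1% of genes) and 2 at 4 h (34.1%). None was called between 2 h and 4 h (12.1% of genes; 1 at an unadjusted p under 0.05, and 0 in DESeq2). With the replicate block of genotype, set and cohort, 4 were called at 2 h, and Csf1r was called between 2 h and 4 h (-0.84, adjusted p = 0.00731). The shares of genes given here are from the fit without the block and do not apply to these added calls.

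Set against wild-type cells, MyD88KO cells had no called member at 0 h by edgeR (0 of 8, none at an unadjusted p under 0.05, and 0 in DESeq2; 0.0622% of genes were called). After LPS 7 of 8 were called at 2 h (12.8% of genes) and 7 of 8 at 4 h (28.4%). All 5 cytokine genes were lower, as were 7.03% of genes at 2 h and 14.6% at 4 h (5.8% and 13.7% were higher), without overlap between the groups. At 2 h the log2 difference was -3.93 ± 0.74 for Il10 (adjusted p = 0.000823), -6.22 ± 1.06 for Csf2 (adjusted p = 0.000308), -5.96 ± 0.76 for Csf3 (adjusted p = 1.58e-05) and -1.55 ± 0.25 for Csf1 (adjusted p = 0.000191). At 4 h it was -6.71 ± 0.84 for Il10 (adjusted p = 1.75e-06), -8.36 ± 0.89 for Csf3 (adjusted p = 2.02e-07) and -1.36 ± 0.25 for Csf1 (adjusted p = 0.000158). Csf2 at 4 h, with 2 counts in MyD88KO cells, had a ratio to the wild type of 0.00721 (95% counting interval 0.000871 to 0.0262). The 2 counts of Csf2 and the 4 of Csf3 in MyD88KO cells at 4 h were all in replicate 1, without which both genes had 0 counts there and Il10 differed by -7.74. Without MyD88KO replicate 2 at 2 h Csf2 differed by -7.69. Il19 was at least 30.0-fold lower at 2 h and at least 42.9-fold lower at 4 h.

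The receptor genes differed less. The log2 difference of Il10ra, MyD88KO against wild type, was -0.77 ± 0.13 at 2 h and -0.50 ± 0.12 at 4 h (adjusted p = 0.000283 and 0.00355). Scaled by library totals without TMM, the 4 h difference was -0.16 (adjusted p = 0.278), and with low-numbered wild-type libraries alone neither passed (adjusted p = 0.0866 and 0.059). Csf1r was higher at 4 h by 0.86 ± 0.27 (adjusted p = 0.0161), which was 0.44 (adjusted p = 0.31) without MyD88KO replicate 2 and 0.73 (adjusted p = 0.194) against low-numbered wild-type libraries alone. Csf2rb was higher at 2 h by 0.41 ± 0.13 (adjusted p = 0.04), a call lost without any 1 of 4 libraries, with 0.26 (adjusted p = 0.302) without MyD88KO replicate 2, and with wild-type libraries of a cohort summed (0.40, adjusted p = 0.058).

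A rise smaller in MyD88KO than in wild-type cells was tested as a difference of log2 fold changes, called for 1 of 8 members at each time (0.442% of genes at 2 h and 6.86% at 4 h). For Csf1 the difference was -1.44 ± 0.33 at 2 h (adjusted p = 0.0411) and -1.24 ± 0.33 at 4 h (adjusted p = 0.0189). Against low-numbered wild-type libraries alone it was -1.11 (adjusted p = 0.934) and -1.21 (adjusted p = 0.122). Leaving out single libraries ended the 2 h call in 13 cases, with values of -1.51 to -1.31. The 4 h call ended without MyD88KO replicate 2 at 0 h (-1.14, adjusted p = 0.066) or replicate 3 at 4 h (-1.13, adjusted p = 0.0576). For Il10 the difference at 4 h was -4.81 ± 1.74 (adjusted p = 0.0951; DESeq2 -4.77, adjusted p = 0.000648), with few counts in MyD88KO cells at 0 h. For Il10ra it was -0.61 ± 0.17 at 2 h (adjusted p = 0.131), and -0.59 (adjusted p = 0.0106) with genotype, set and cohort as a replicate block.

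Cells labelled TrifKO kept the rise of Il10, Csf1, Csf2 and Csf3. Il10 was at 0, 0.107 and 0.0656 CPM at 0 h, at 2.58, 3.20 and 0.961 CPM at 2 h, and at 9.65, 8.55 and 1.70 CPM at 4 h. Every stimulated library was above every unstimulated one, and the replicate 3 libraries that stood apart were the lowest at each time after LPS. Its log2 fold change was 5.28 ± 0.91 at 2 h (adjusted p = 0.000104) and 6.84 ± 0.93 at 4 h (adjusted p = 4.15e-06). Without cohort 3 it was 5.78 and 7.43, and the other 0 h libraries moved it most: it was 4.67 and 6.24 without replicate 1 and 6.03 and 7.59 without replicate 2 at 0 h.

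Csf3 had 2 counts at 0 h, both in replicate 1, and was at 4.62, 6.79 and 2.02 CPM at 2 h and at 16.03, 13.5 and 2.67 CPM at 4 h. The ratio to 0 h was 407 at 2 h (95% counting interval 112 to 3372) and 1005 at 4 h (278 to 8303), with adjusted p = 5.34e-07 and 8.84e-08. Csf2 had 7 counts at 0 h and was at 1.91, 2.87 and 0.164 CPM at 2 h and at 0.926, 0.586 and 0.372 CPM at 4 h. Its log2 fold change was 5.35 ± 1.09 (adjusted p = 0.000676) and 3.96 ± 1.10 (adjusted p = 0.00804), and without cohort 3 it was 6.48 and 4.82. Without replicate 3 at 0 h alone it was 5.94 and 4.56, and without replicate 2 at 2 h the 2 h value was 4.68. Il19 was at 0, 0.162 and 0.102 CPM at 2 h and at 0.249, 0.208 and 0.0827 CPM at 4 h, from 2 counts at 0 h, and did not pass the threshold (adjusted p = 0.217 and 0.0521). At 4 h it passed in DESeq2 (4.07, adjusted p = 0.0298) and without replicate 3 at 4 h (4.13, adjusted p = 0.0495).

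Csf1 in these cells was at 87.2, 62.4 and 67.4 CPM at 0 h, at 293, 233 and 130 CPM at 2 h, and at 123, 153 and 97.8 CPM at 4 h. Its log2 fold change was 1.595 ± 0.27 at 2 h (adjusted p = 8.69e-05) and 0.78 ± 0.27 at 4 h (adjusted p = 0.0302). Without cohort 3 it was 1.82 and 0.88 (adjusted p = 0.000173 and 0.0399). The 4 h call was lost without replicate 2 or 3 at 0 h (0.69 and 0.73) or replicate 1 or 2 at 4 h (0.76 and 0.61), and without TMM (0.55, adjusted p = 0.092). Il10ra was at 167, 165 and 174 CPM at 0 h, at 243, 254 and 237 CPM at 2 h (0.54 ± 0.14, adjusted p = 0.00608; without TMM 0.28, adjusted p = 0.118) and at 191, 183 and 174 CPM at 4 h (0.11 ± 0.14, adjusted p = 0.599). Csf1r was at 973, 1065 and 1031 CPM at 0 h and at 631, 632 and 479.5 CPM at 4 h (-0.82 ± 0.32, adjusted p = 0.0568), without overlap. The fall passed in DESeq2 (adjusted p = 0.0375), with only the compared groups (adjusted p = 0.00448) and without TMM (-1.05, adjusted p = 0.0189). Csf2rb did not change past the threshold (-0.12 ± 0.15 and -0.18 ± 0.15).

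In all 5 of 8 members were called in cells labelled TrifKO at 2 h (20.7% of genes) and 4 of 8 at 4 h (25.9%), with and without cohort 3. DESeq2 called 5 at 2 h and 6 at 4 h. Of the 10 combinations of cytokine gene and time, replicate 3 was the lowest library in 9. The 6 marker sums given above (granulocyte, mast cell and basophil, macrophage, B cell, dendritic cell, T and NK cell) moved with these values. Ticam1 did too, at 2.94 and 2.46 CPM in replicate 3 at 2 h and 4 h. It was at 29.8 to 50.3 CPM in the other libraries labelled TrifKO. Leaving out cohort 3 thus removes the only libraries in which Ticam1 was low. The part of the marker sums and of Ticam1 in the result was not tested. No member was called between 2 h and 4 h (1.17% of genes; 4 at an unadjusted p under 0.05, and 0 in DESeq2). Same-cohort pairs of these 2 groups had an r of 0.219 or more, although 2 of the 6 libraries correlated best with their own number. With genotype, set and cohort as a replicate block, Il10 (1.44, adjusted p = 0.043), Csf3 (1.08, adjusted p = 0.0272), Il10ra (-0.42, adjusted p = 0.00967) and Csf1 (-0.76, adjusted p = 0.0179) were called. Xist differed between 2 h and 4 h in cohort 1 (0 and 1233 CPM) and in cohort 2 (1203 and 0.0378 CPM). The pairing is therefore uncertain, and these calls are no support of their own. The 1.17% is from the fit without the block.

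**Figure D3:**
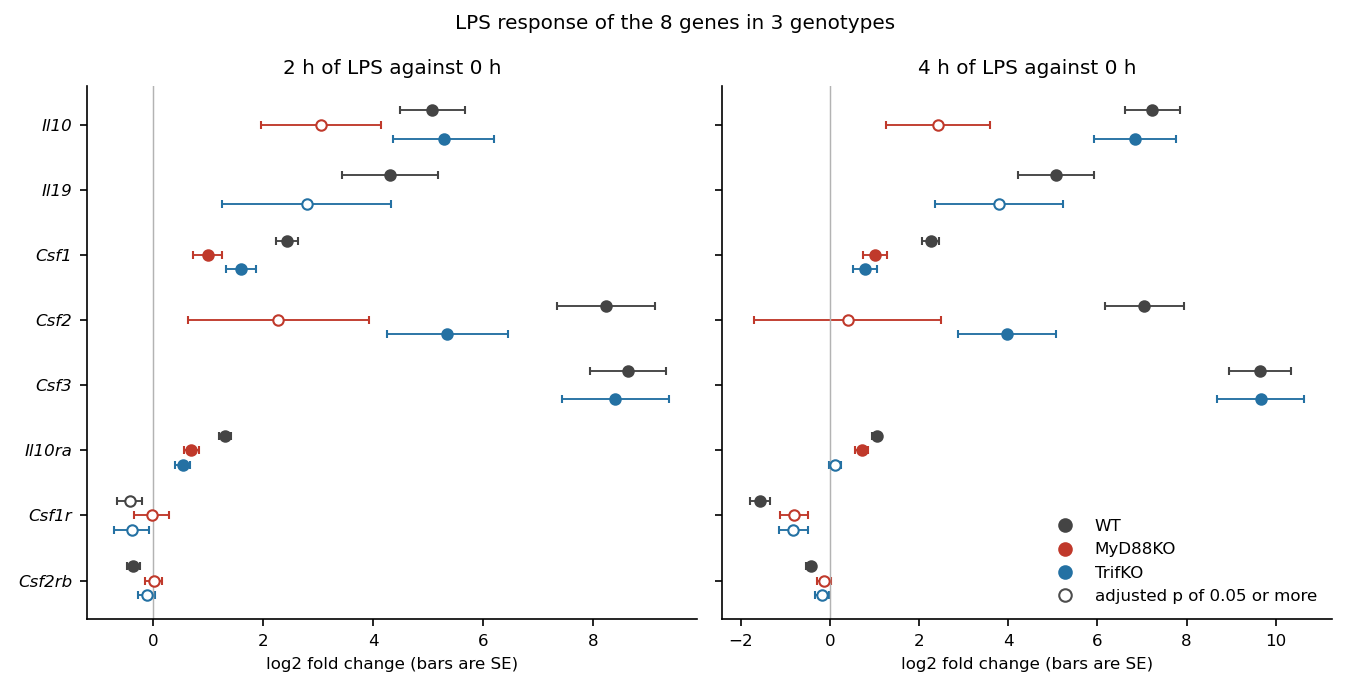
Log2 fold change of the 8 genes at 2 h and 4 h of LPS against 0 h in wild-type cells, MyD88KO cells and cells labelled TrifKO, with SE; filled points have an adjusted p under 0.05. MyD88KO values of Il19 and Csf3 are not drawn because a group had 0 counts. Csf3 in wild-type cells reached 9.64 at 4 h, and Csf1r was at -1.57.

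Against wild-type cells, cells labelled TrifKO differed in 0 members at 0 h by edgeR (none at an unadjusted p under 0.05, and 0 in DESeq2; 0% of genes were called), in 1 of 8 at 2 h (3.63% of genes) and in 4 of 8 at 4 h (33.2%). Il10ra was lower by edgeR at both times, with log2 differences of -0.67 ± 0.13 at 2 h (adjusted p = 0.00108) and -0.84 ± 0.13 at 4 h (adjusted p = 5.72e-06), and without overlap between the groups. Without cohort 3 these were -0.65 (adjusted p = 0.0169) and -0.81 (adjusted p = 0.00027). Against low-numbered wild-type libraries alone the 2 h value was -0.42 (adjusted p = 0.143). Csf1 was lower at 4 h by -1.14 ± 0.24 (adjusted p = 0.000512; without cohort 3 -0.99, adjusted p = 0.00449), and Csf1r was higher by 0.84 ± 0.27 (adjusted p = 0.0145; without cohort 3 0.96, adjusted p = 0.0211). The Csf1r call was lost without replicate 1 (0.74, adjusted p = 0.0725) or replicate 2 (0.78, adjusted p = 0.0626) of the 4 h libraries labelled TrifKO.

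Il19 at 4 h was lower by -2.44 ± 0.93 (adjusted p = 0.0455), a call lost without cohort 3 (-2.10, adjusted p = 0.164), and without any 1 of 5 libraries, among them wild-type replicate 1 with a high library number (-1.80, adjusted p = 0.122). It was -1.04 (adjusted p = 0.429) against low-numbered and -3.15 (adjusted p = 0.0153) against high-numbered wild-type libraries alone. Csf3 did not differ past the threshold at either time (-0.11 ± 0.51, adjusted p = 0.963, and 0.14 ± 0.48, adjusted p = 0.852). Il10 at 4 h differed by -1.44 ± 0.59 (adjusted p = 0.0578). That difference passed in DESeq2 (-1.50, adjusted p = 0.0418), against high-numbered wild-type libraries alone (-1.85, adjusted p = 0.0285) and without the 4 h wild-type replicate 1 with a low library number (-1.64, adjusted p = 0.0247). Against low-numbered wild-type libraries alone it was -0.89 (adjusted p = 0.349), and without cohort 3 -0.99 (adjusted p = 0.232).

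As a difference of log2 fold changes, the Il10ra rise was smaller in cells labelled TrifKO than in wild-type cells by -0.77 ± 0.17 at 2 h (adjusted p = 0.0147) and -0.94 ± 0.17 at 4 h (adjusted p = 0.000219). Without cohort 3 it was -0.72 (adjusted p = 0.163) and -0.88 (adjusted p = 0.00551). The 2 h call was also lost without replicate 1 or 3 at 2 h or replicate 3 at 0 h of the cells labelled TrifKO (-0.76, -0.75 and -0.75), and against low-numbered wild-type libraries alone (-0.60, adjusted p = 0.462). The Csf1 rise was smaller at 4 h by -1.48 ± 0.33 (adjusted p = 0.00178; without cohort 3 -1.38, adjusted p = 0.00856). This gave 1 of 8 members called at 2 h (1.38% of genes) and 2 of 8 at 4 h (18.3%).

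The labelled knockouts were also set against each other, with 4 of 8 members called at 2 h (3.37% of genes) and 4 of 8 at 4 h (11.4%), all higher in cells labelled TrifKO, as were 2.05% and 5.32% of genes (1.32% and 6.09% were lower). At 2 h these were Csf3 (log2 difference 5.85 ± 0.78, adjusted p = 4.35e-05), Csf2 (4.81 ± 1.06, adjusted p = 0.0091), Il10 (3.08 ± 0.76, adjusted p = 0.0203) and Csf1 (1.06 ± 0.27, adjusted p = 0.0228). Of these only Csf3 remained called under every omission of a single library: 3 to 5 omissions each ended the other calls, with values down to 4.14 for Csf2, 2.74 for Il10 and 0.79 for Csf1. Without MyD88KO replicate 2, which held 7 of the 9 Csf2 counts at 2 h, Csf2 was at 6.28. At 4 h they were Csf3 (8.4998 ± 0.91, adjusted p = 1.6e-07), Il10 (5.27 ± 0.83, adjusted p = 3.95e-05), Csf2 (ratio 46.9, 95% counting interval 12.7 to 393) and Il19 (at least 8.98-fold; adjusted p = 0.0417). Without any 1 of 5 libraries Il19 lost its call, with adjusted p values of 0.0896 to 0.117. Without MyD88KO replicate 1 at 4 h Il10 differed by 6.30. Csf1 did not differ past the threshold at 4 h (0.22 ± 0.27, adjusted p = 0.661).

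Genes of the pathways around the members were described by lists. Of 13 genes of the JAK-STAT signalling of these receptors, 10 rose and 1 fell in wild-type cells at 2 h, and 11 rose and 1 fell at 4 h. The median log2 fold change at 4 h was 1.42, against -0.07 over all genes, of which 30.0% rose and 35.1% fell. Socs3, the feedback inhibitor that Stat3 induces, had a log2 fold change at 4 h of 5.08 ± 0.25 in wild-type cells, 1.88 ± 0.31 in MyD88KO cells and 4.03 ± 0.33 in cells labelled TrifKO. Socs1, a feedback inhibitor of JAK kinases, rose by 3.28 ± 0.24, 2.25 ± 0.33 and 1.67 ± 0.32. Cish, a target of Stat5 downstream of Csf2, rose by 2.69 ± 0.23, 1.23 ± 0.30 and 1.90 ± 0.31. Inpp5d, a phosphatase that restrains cytokine signalling, fell by 2.26, 1.50 and 1.19. The 4 h count was 11 up and 1 down in MyD88KO cells and 9 up and 1 down in cells labelled TrifKO, or 8 and 1 without cohort 3. Over all genes 17.1% rose and 17% fell in MyD88KO cells, and 14.4% rose and 11.5% fell in cells labelled TrifKO. Against wild-type cells at 4 h, 9 were lower and 1 higher in MyD88KO cells, where 14.6% of all genes were lower and 13.7% higher. In cells labelled TrifKO 9 were lower and 1 higher (7 and 1 without cohort 3), where 15.6% of all genes were lower and 17.7% higher.

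**Figure D4:**
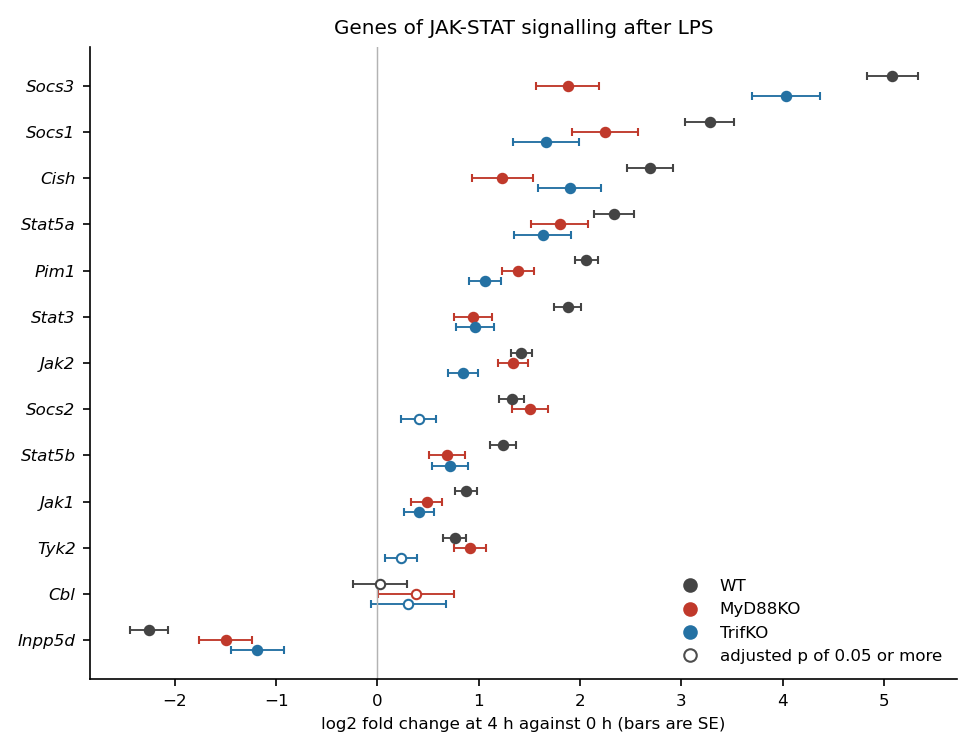
Log2 fold change at 4 h of LPS against 0 h, with SE, of 13 genes of JAK-STAT signalling in wild-type cells, MyD88KO cells and cells labelled TrifKO; filled points have an adjusted p under 0.05. Socs3 had the largest rise in wild-type cells, 5.08, and Inpp5d fell in the 3 genotypes.

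The lists that follow are to be set against all genes at 4 h. Of these 30.0% rose and 35.1% fell in wild-type cells, 17.1% rose in MyD88KO cells and 14.4% in cells labelled TrifKO. Of 8 genes known to be induced by IL-10 in macrophages, 7 rose in wild-type cells at 4 h, 6 in MyD88KO cells and 3 in cells labelled TrifKO (2, with 1 lower, without cohort 3). Against wild-type cells at 4 h, 0 were higher and 4 lower in MyD88KO cells (median log2 difference -0.33), and 0 higher and 4 lower in cells labelled TrifKO (-0.56). Over all genes 14.6% and 15.6% were lower in these comparisons. Bcl3, a partner of NF-kappaB p50, rose by 1.95 ± 0.16 in the wild type and 2.14 ± 0.22 in MyD88KO cells, and at 4 h was lower in MyD88KO than in wild-type cells by -0.63 ± 0.19 (adjusted p = 0.0142). Of 11 measured regulators of Il10 transcription or mRNA decay, 7 rose and 1 fell in wild-type cells at 4 h, 6 rose in MyD88KO cells and 4 in cells labelled TrifKO (2 without cohort 3). The kinase gene Map3k8 rose by 2.55 ± 0.17 in wild-type cells, 1.21 ± 0.23 in MyD88KO cells and 1.21 ± 0.23 in cells labelled TrifKO, and Nfkb1 by 2.07 ± 0.11, 1.31 ± 0.15 and 1.53 ± 0.15. Of 6 factors known to drive Csf1r transcription, 3 rose and 2 fell in wild-type cells at 4 h. Cebpa fell there by 2.52 and Runx1 by 1.50, while Irf8 rose by 1.83 ± 0.21, and Spi1 had a value of 0.18 ± 0.09 (adjusted p = 0.077).

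Of 19 related ligands and receptors 9 were tested, and 4 rose and 1 fell in wild-type cells at 4 h. Il22, an IL-10 family cytokine, had a log2 fold change of 4.38 ± 1.01, and Il20rb, a chain of the IL-19 receptors, of 1.66 ± 0.26. Il10rb rose by 0.53 ± 0.15 (adjusted p = 0.0034). Csf2ra (0.29 ± 0.14) and Csf3r (-0.10 ± 0.40) did not change past the threshold. In MyD88KO cells 1 of the 9 rose at 4 h, and in cells labelled TrifKO 1. The shares of all genes that rose at 4 h were 30.0% in wild-type cells, 17.1% in MyD88KO cells and 14.4% in cells labelled TrifKO.

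In unstimulated cells of experiment 2, the genotype of Suv39h1 and Ifnar was tested on the 4 members that passed the filter. Il10, Il19, Csf2 and Csf3 had at most 9 counts in a library and were not tested. Csf1 was at 122, 122 and 104 CPM in cells wild type for both genes, at 87.5, 91.2 and 81.3 CPM in Suv39h1KO cells, at 106, 116 and 151 CPM in IfnarKO cells, and at 86.8, 81.2 and 82.2 CPM in cells with both knockouts. All 6 libraries with Suv39h1KO were below all 6 without it. The log2 difference for Suv39h1KO was -0.42 ± 0.13 in IfnarWT cells (adjusted p = 0.521) and -0.58 ± 0.13 in IfnarKO cells (adjusted p = 0.16), so neither was called by edgeR without the cohort block. The cohorts pair these libraries, and with the cohort number as a replicate block the value in IfnarKO cells was -0.57 (adjusted p = 0.0442). That block moved the called genes in this comparison from 32 to 192. In DESeq2 the Csf1 value in IfnarKO cells was -0.58 (adjusted p = 0.0115).

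In the edgeR fit without the cohort block, which ignores the pairing, no member was called in any of the 5 comparisons of experiment 2. There 0.209%, 0.222%, 0.125%, 0.16% and 0% of genes were called. With the block Csf1 was called, as given above. At an unadjusted p under 0.05, 1 member was counted for each effect of Suv39h1KO and 0 in the other comparisons. DESeq2 called 1, Csf1 as given above. Dendritic cell marker sums were 21927 to 25991 CPM in Suv39h1KO libraries and 15072 to 22772 CPM in the others, and their part in the Csf1 values was not tested. Il10ra was at 165 to 226 CPM over the 12 libraries, Csf1r at 1091 to 1576 CPM and Csf2rb at 4355 to 6690 CPM. Their log2 differences between genotypes were -0.34 to 0.10.

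RAW264.7 cells had another resting pattern and showed at 2 h of LPS higher Il10, Csf1, Csf2, Csf3 and Il10ra and lower Csf1r with each guide. At 0 h with gRNA_Ctrl, Csf1r was at 337 CPM per kb, above Csf2rb (6.01) and Il10ra (2.97), with no overlap between these. The other members were at 0.0760 or less. At 2 h Csf3 was second, at 63.1 CPM per kb, below Csf1r (220.5) and above Il10ra (8.5005). The ranges of Csf1 (4.62), Csf2rb (4.21) and Csf2 (3.52) overlapped in that order.

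With gRNA_Ctrl, 7 of 8 members were called at 2 h (51.6% of 13078 genes). With gRNA_1 it was 8 of 8 (51.3%) and with gRNA_2 7 of 8 (50.8%). Csf2 and Csf3 passed the filter on low counts only through libraries at 2 h, so these counts of called members are no support of their own. Csf3 was at 0.0885, 0.0428 and 0.0441 CPM at 0 h and at 79.8, 81.8 and 106 CPM at 2 h with gRNA_Ctrl (log2 fold change 10.43 ± 0.38, adjusted p = 4.86e-13). Csf1 was at 0.369, 0.0857 and 0.375 CPM and then at 23.1, 22.6 and 27.5 CPM (6.40 ± 0.25, adjusted p = 9.77e-13). Csf2 had 0 counts in all 9 libraries at 0 h. With gRNA_Ctrl it was at 3.23, 3.06 and 2.17 CPM at 2 h, at least 149-fold higher, and it was at least 66.8-fold higher with gRNA_1 and at least 150.3-fold higher with gRNA_2.

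Il10 rose with gRNA_Ctrl from 0.0590, 0.107 and 0.132 CPM to 1.15, 1.07 and 2.37 CPM (3.99 ± 0.54, adjusted p = 8.58e-06). Il10ra rose from 8.44, 9.34 and 13.4 CPM to 27.4, 31.4 and 30.4 CPM (1.52 ± 0.20, adjusted p = 6.57e-06). Csf1r fell from 1962, 1956 and 1919 CPM to 1284, 1271 and 1264 CPM (-0.61 ± 0.05, adjusted p = 6.77e-09). Csf2rb fell from 41.8, 42.4 and 46.975 CPM to 28.5, 31.8 and 31.5 CPM (-0.51 ± 0.09, adjusted p = 9.61e-05). Groups did not overlap for any of these 4 genes. Csf2rb2 fell by 0.74 (adjusted p = 3.6e-08).

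Il19 differed between cells with gRNA_1 and cells with gRNA_Ctrl before and after LPS. It was at 3.68, 2.51 and 3.97 CPM at 0 h with gRNA_1, at 0.0738, 0.0214 and 0 CPM with gRNA_Ctrl, and at 0.197, 0.0531 and 0.0506 CPM with gRNA_2. At 2 h it was at 8.49, 10.4 and 10.1 CPM with gRNA_1, at 0.0458, 0.15003 and 0.209 CPM with gRNA_Ctrl, and at 0.531, 0.161 and 0.299 CPM with gRNA_2. Every library with gRNA_1 was above every library of the other guides. The log2 difference of gRNA_1 from gRNA_Ctrl was 6.42 ± 0.53 at 0 h (adjusted p = 1.85e-06; 549 against 6 counts; 8.01 without gRNA_Ctrl replicate 1) and 6.09 ± 0.41 at 2 h (adjusted p = 2.23e-07). With gRNA_2 it was 1.52 ± 0.87 (adjusted p = 0.376) and 1.25 ± 0.56 (adjusted p = 0.211).

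Il19 also rose with LPS in cells with gRNA_1 (1.52 ± 0.28, adjusted p = 0.00023) and gRNA_2 (1.58 ± 0.55, adjusted p = 0.0244), and with gRNA_Ctrl its value was 1.85 ± 0.87 (adjusted p = 0.0859). Without gRNA_Ctrl replicate 1 at 0 h that value was 3.44 (adjusted p = 0.0397), and without replicate 1 at 2 h it was 2.20 (adjusted p = 0.0464). The gRNA_2 call was lost without replicate 2 or 3 at 0 h or replicate 1 at 2 h (1.19, 1.38 and 1.10), and the value was 2.63 without replicate 1 at 0 h. The response of Il19 with gRNA_1 did not differ from that with gRNA_Ctrl past the threshold (-0.33 ± 0.84). Il10, the neighbour of Il19, was at 0.163, 0.296 and 0.242 CPM with gRNA_1 at 0 h (log2 difference from gRNA_Ctrl 1.32 ± 0.67, adjusted p = 0.417) and at 1.69, 1.35 and 1.99 CPM at 2 h (0.12 ± 0.37, adjusted p = 0.922).

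**Figure D5:**
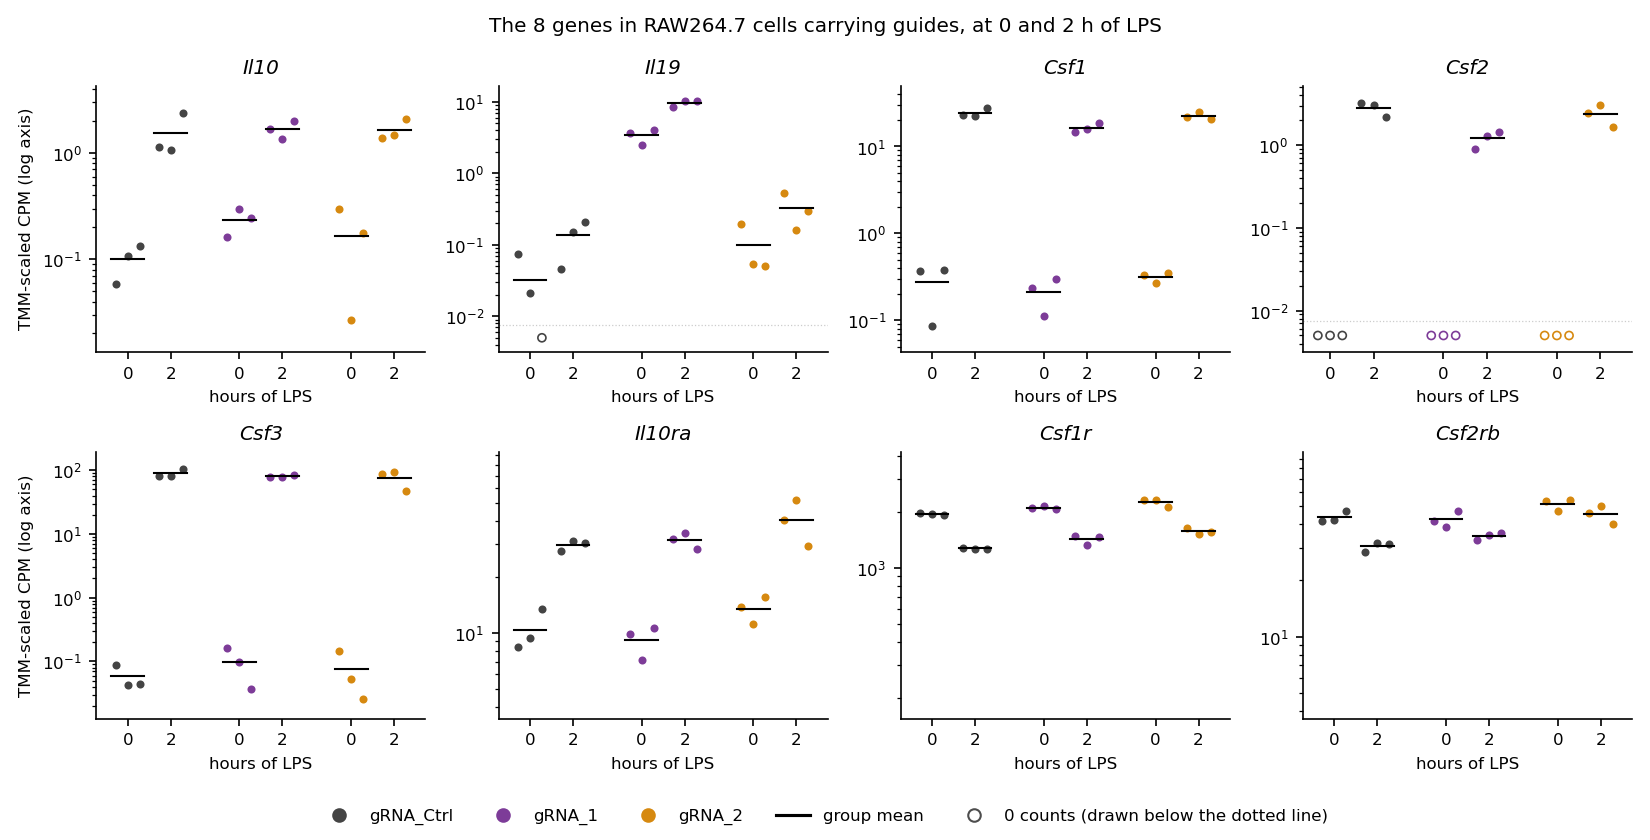
Level of the 8 genes in each RAW264.7 library (TMM-scaled CPM, log axis) at 0 h and 2 h of LPS, by guide; bars are group means, and open circles below the dotted line are libraries with 0 counts. Il19 was at 2.51 to 10.4 CPM in the 6 libraries with gRNA_1 and at 0.531 CPM or less in the other 12.

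With gRNA_1, 1 of 8 members was called at 0 h (2.24% of genes) and 2 of 8 at 2 h (3.08%). Csf2 was at 0.894, 1.28 and 1.44 CPM with gRNA_1 at 2 h, below all 3 gRNA_Ctrl libraries (-1.22 ± 0.28, adjusted p = 0.0436). That call was lost without any 1 of 5 of the 6 libraries, with values of -1.37 to -1.04. Csf1 was at 14.5, 15.9 and 18.6 CPM with gRNA_1 at 2 h, also below all 3 gRNA_Ctrl libraries (-0.58 ± 0.16, adjusted p = 0.0575). It passed in DESeq2 (-0.58, adjusted p = 0.00134), without the filter (-0.58, adjusted p = 0.0387) and with only the compared groups (-0.59, adjusted p = 0.0403). Csf1r passed there in DESeq2 (0.16, adjusted p = 0.0353) and without TMM (0.16, adjusted p = 0.0469). With gRNA_2, 1 of 8 was called at 0 h (4.53% of genes) and 2 of 8 at 2 h (5.96%). Csf1r was higher by 0.21 ± 0.05 at 0 h (adjusted p = 0.0141) and 0.31 ± 0.05 at 2 h (adjusted p = 0.00087), and Csf2rb by 0.57 ± 0.09 at 2 h (adjusted p = 0.000991). The 0 h call of Csf1r was lost without any 1 of 4 libraries, with values of 0.19 to 0.22. No member's response differed between a guide and gRNA_Ctrl by edgeR (0.00765% and 0% of genes called; 0 and 1 members at an unadjusted p under 0.05, and 0 in DESeq2 for both).

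Of the lists in RAW264.7 cells with gRNA_Ctrl at 2 h, 8 of 12 tested JAK-STAT genes rose and 2 fell, among them Cish (8.49 ± 0.25) and Pim1 (4.59 ± 0.11), a kinase gene induced by Stat5. Socs3 rose by 3.01 ± 0.13. Of the 8 genes known to be induced by IL-10, 7 rose and 1 fell, and of 10 tested regulators of Il10, 6 rose and 2 fell. Spi1, a main activator of Csf1r, rose by 0.58 ± 0.05 and Ets2 by 1.92 ± 0.10, while Irf8 fell by 0.42. The shares over all genes were 26.3% higher and 25.3% lower.

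Among genes of at least 5 CPM on average, those whose log2 CPM followed a member most closely were named. They are a description, since the 35 libraries of experiment 3 used for this share genotypes, times and depth. For Il10 they were Ufm1 (Pearson r = 0.958), Id2 (0.956) and Rabgef1 (0.952). The member Csf3 was not among the genes compared, and its r with Il10 was 0.954, above that of Rabgef1. For Il19 the named genes were Il12a (0.859), Ccl3 (0.854) and Edn1 (0.849). For Csf1 they were Pgs1 (0.961), Tnfsf15 (0.959) and Ccl4 (0.956), and for Csf2 Ccl3 (0.938), Il23a (0.926) and Il1bos (0.922). Csf3 was followed by Zc3h12a (0.969), an RNase gene, and by Ccl3 and U90926 (both 0.965). The closest for Il10ra were Irf1 (0.947), Gprc5c (0.946) and Ccnl1 (0.930), for Csf1r Septin9 (0.950), Clcn4 (0.950) and Manba (0.941), and for Csf2rb Emc1 (0.870), Irf2bp2 (0.842) and Pex5 (0.840).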

How the data were processed

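Read counts per gene were deposited by the authors as raw whole-number counts, and the submitters' processing notes name STAR, HOMER, DESeq2 and the mm10 build, without versions. PolyA RNA of 65 libraries was measured, in the 19 groups that the labels give. From the counts, edgeR 4.0.16 (R 4.3.3, limma 3.58.1) was run for each experiment with filterByExpr, TMM scaling, 1 term per group, glmQLFit and glmQLFTest. P-values were adjusted by Benjamini-Hochberg over the 14386, 14475 and 13078 genes tested in experiments 2, 3 and 5, with a threshold of 0.05. Errors of fold changes are SE and those of levels SD. A group with 0 counts was set at 3 counts over the group, and ratios with 1 to 3 counts have exact 95% intervals. Intervals and limits cover counting error only. The test was checked on simulated counts for wild type at 2 h against 0 h over 12578 genes. There 91 of 110 genes changed by 1 on the log2 scale and 89 of 90 changed by 3 were recovered. Genes with low levels in wild-type cells at 0 h were left out of the simulation, so it does not cover Il10, Il19, Csf2 and Csf3. Far fewer genes were changed in it than were called in the data. Files of 88 replicate pairs were compared, and none agreed within sampling noise. High-numbered wild-type replicates 1 and 2 were closer to each other than other wild-type pairs. Their chi-square per degree of freedom, higher the less a pair agrees, was 16.1 at 0 h, 10.0 at 2 h and 13.0 at 4 h. It was 37.2 to 366 in the other wild-type pairs and 81.2 to 298 in MyD88KO pairs. In cells labelled TrifKO it was 6.29 to 20.1 at 0 h. Replicates 1 and 2 of those cells were at 24.4 at 2 h and 24.3 at 4 h, against 184 to 239 for pairs with replicate 3. Pairs of RAW264.7 libraries were at 4.94 to 50.3. The fits counted all libraries as separate, and whether the libraries of close pairs share cells is not given.

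Cohort numbers were checked for pairing by the correlation of deviations from group means. In experiment 2 same-cohort pairs had a lowest r of 0.268, and the numbers were taken to pair libraries. In experiment 3 they paired libraries within genotype and wild-type library set for MyD88KO and wild-type cells. All 3 same-number pairs also had an r over 0.1 for TrifKO at 2 h and 4 h, for TrifKO and MyD88KO at 2 h, and for gRNA_2 at 0 h and 2 h. For TrifKO at 2 h and 4 h, Xist differed within the pairs of cohort 1 and of cohort 2, so that pairing is uncertain. In the other comparisons only a number is shared. Wild-type libraries carry numbers up to 14 or from 33 on in their titles, and the sets were also fitted alone. All 8 members were named, together with genes of lists on their signalling, regulators, targets and relatives. Likeness was Pearson's r of log2 CPM among genes of at least 5 CPM on average, with the top 3 named. Members and lists were chosen with earlier results of these data known. A gene of the signalling list is not reported here and was left out of its counts. Alternatives were DESeq2 1.42.0, no filter, no TMM, replicate blocks, only the compared groups, wild-type sets, summed wild-type cohorts, and leaving out single libraries or cohort 3 of the cells labelled TrifKO. The fits without TMM, with genotype, set and cohort as a block, and without cohort 3 of the cells labelled TrifKO were chosen after seeing the data.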

Additional observations from a re-analysis of the deposited data

Results flagged for a closer look

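Csf2 at 0 h in wild-type cells was highest in replicate 2 with a low library number, at 0.0534 CPM, apart from the next library at 0.0195 CPM. The limit used is a 95% critical value, which by its construction chance passes in about 1 in 20 groups, and 1 of the 24 sets of a member and a group passed it. The group held 5 counts. The other 5 results are differences between genotypes in the response to LPS, each tested as an interaction term in edgeR. The Csf1 response of MyD88KO cells minus that of wild-type cells was -1.44 at 2 h and -1.24 at 4 h on the log2 scale. For cells labelled TrifKO the Il10ra response differed by -0.77 at 2 h and -0.94 at 4 h, and the Csf1 response by -1.48 at 4 h. As given above, both 2 h calls and the 4 h call of Csf1 in MyD88KO cells were lost without certain single libraries. They were also lost against low-numbered wild-type libraries alone. The 4 h calls for cells labelled TrifKO were kept under these changes.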

How the results depend on the processing

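Of the recomputed counts of called members, 471 stayed within 1.5 times the reported count and 72 did not. Of the values of single members, 3866 kept their side of the threshold, 94 passed it only under an alternative, 103 lost it, and none changed sign as a called value. With the cohort number as a replicate block, 4 members were called in wild-type cells between 4 h and 2 h (2 reported), 4 in MyD88KO cells at 2 h (2) and 1 between 4 h and 2 h (0), 1 for Suv39h1KO in IfnarKO cells (0) and 4 for gRNA_1 against gRNA_Ctrl at 2 h (2). With genotype, set and cohort as a replicate block, the counts were 5 in wild-type cells between 4 h and 2 h, 4 in MyD88KO cells at 2 h and 1 between 4 h and 2 h, 4 in cells labelled TrifKO between 4 h and 2 h (0), and 2 for the MyD88KO response difference at each time (1). Without TMM they were 5 in wild-type cells between 4 h and 2 h, 4 in MyD88KO cells at 4 h (2), 0 and 2 for the MyD88KO response difference at 2 h and 4 h, and 4 for the TrifKO one at 4 h (2). DESeq2 called 4 in MyD88KO cells at 2 h and 4 at 4 h, 3 and 5 for the MyD88KO response difference at 2 h and 4 h, 1 for Suv39h1KO in IfnarKO cells and 4 for gRNA_1 at 2 h. With only the compared groups, 3 were called for MyD88KO against wild type at 2 h (7), 0 and 2 for TrifKO against wild type at 2 h (1) and 4 h (4), 1 for TrifKO against MyD88KO at 2 h (4) and 0 for the MyD88KO response difference at 2 h. With low-numbered wild-type libraries alone, 0 were called in wild-type cells between 4 h and 2 h, 0 and 2 for TrifKO against wild type at 2 h and 4 h, and 0 for the response differences of MyD88KO at both times and of TrifKO at 2 h. With high-numbered ones, 2 were called for the MyD88KO response difference at 2 h, and without cohort 3 of TrifKO, 0 for the TrifKO one at 2 h. Leaving out single libraries gave 2 to 4 called members in wild-type cells between 4 h and 2 h, 1 to 2 in MyD88KO cells at 2 h and 0 to 1 between 4 h and 2 h, 2 to 5 for TrifKO against wild type at 4 h, and 1 to 4 for TrifKO against MyD88KO at 2 h. It gave 0 to 2 and 0 to 1 for the MyD88KO response difference at 2 h and 4 h, 0 to 1 for the TrifKO one at 2 h, 0 to 1 for gRNA_2 at 0 h and 1 to 2 for gRNA_1 at 2 h. The cause of these changes was not tested. Without TMM the median log2 fold change of all genes moved by -0.38 and -0.64 in wild-type cells at 2 h and 4 h, -0.22 and -0.35 in MyD88KO cells, -0.26 and -0.23 in cells labelled TrifKO, and by -0.17 to -0.18 in RAW264.7 cells. As to pairing, the 45 same-number pairs of RAW264.7 libraries had a mean r of 0.123 (lowest 0.00341), against -0.0613 for other pairs. For gRNA_2 at 0 h and 2 h all 3 pairs were over 0.1 (lowest 0.128), and the replicate block changed no member's call there. Elsewhere among the comparisons of RAW264.7 cells at least 1 pair was below 0.1. For gRNA_1 and gRNA_Ctrl at 2 h the lowest r was 0.0224, 4 of 6 libraries correlated best with their own number, and the replicate block moved the called genes from 403 to 1240, with Csf1 (-0.58, adjusted p = 0.00853) and Csf1r (0.16, adjusted p = 0.016) among them. For cells labelled TrifKO at 4 h and 0 h the lowest r was -0.264 and 0 of 6 libraries correlated best with their own number. The replicate block of genotype, set and cohort there called Csf1r (-0.83, adjusted p = 0.00489) and Il19 (3.76, adjusted p = 0.0228). Depth limits Il10, Il19, Csf2 and Csf3 in unstimulated dendritic cells and in MyD88KO cells, where a group held 0 to 47 counts of each.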
